A study of Homo sapiens with 45 samples.

Results

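IMR-32 neuroblastoma cells kept in palbociclib (PB) for 5 d were compared with IMR-32 cells after 24 h of PB. The comparison used 10 of the 45 RNA-seq libraries of the series, chosen by their labels: 5 replicates at 5 d and 5 at 24 h, with every gene that had enough counts. IMR-32 is an established human line of the adrenergic type of neuroblastoma, in which MYCN and MEIS1 are amplified. Both groups received 1 μM PB, an inhibitor of the cyclin dependent kinases CDK4 and CDK6. The 5 replicates of a group were different passages plated as independent experiments. A further 5 untreated IMR-32 libraries, the controls, were collected at the 24 h time point. The 5 d cells therefore also spent more days in culture than the 24 h cells and the controls, and time in PB and time in culture cannot be told apart. The comparison sets a longer response to PB beside an early one.

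The background of these genes is well known. Cyclin D with CDK4 or CDK6 phosphorylates the retinoblastoma protein RB, which then releases E2F transcription factors, and these switch on the genes of DNA synthesis. Another set of genes, those of mitosis, is read later in the cycle through B-MYB and FOXM1, which act through a short promoter element named CHR, often beside a CCAAT box. Neuroblastoma arises from the sympathetic lineage, whose cells leave the cycle as they become neurons and then make noradrenaline with the enzymes TH, DDC and DBH.

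Levels are given as CPM, the counts of a gene scaled to library size with TMM factors, always in the order of replicates 1 to 5. Marker sums alone are scaled to library totals without TMM factors. Differences are log2 values, 5 d minus 24 h, with their standard error, from an edgeR quasi-likelihood fit of the 15 IMR-32 libraries. The standard error is not an output of that fit and was derived from the log2 difference and its F statistic. In parentheses, a value before an adjusted p is this log2 difference. A gene was called where its Benjamini-Hochberg adjusted p over all genes tested was under 0.05 and its log2 difference was beyond 0.5 in either direction. The 24 h libraries held 15965930 to 20455587 counts and the 5 d libraries 17190429 to 18349283. The libraries 24 h replicate 2, 24 h replicate 5 and 5 d replicate 5 stood apart from the rest of their groups: their median absolute deviation from the group mean was 0.215, 0.221 and 0.183 on the log2 scale, against 0.089 to 0.127 in the other 7. Control replicate 5 stood apart too, at 0.259. The 9 adrenergic markers summed to 3900 to 4690 CPM at 24 h and 3350 to 4380 at 5 d, and none was at 0. The 5 mesenchymal markers summed to 8.56 to 50.8 and 8.83 to 13.3 CPM, with FOSL1 at 0, and the 3 leukocyte markers to 0.0626 to 0.351 and 0.0545 to 0.392 CPM, with CD3E at 0. The 5 fibroblast and endothelial markers summed to 69.4 to 108 CPM at 24 h and 25.5 to 38 CPM at 5 d, nearly all of it from COL1A1, and the 4 glial markers to 3.19 to 3.64 and 5.27 to 9.26 CPM. Their part in the results below was not tested.

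Of 14293 genes tested, 19.6% were called between 24 h and 5 d, 10.8% higher at 5 d and 8.86% lower. Without replicate 5 in any group, 13.5% were higher and 11% lower, and without replicate 2 the number of lower calls went from 1266 to 840. Beside these stand the comparisons with control, which share libraries with them: 7.87% of genes were higher and 10.5% lower at 24 h, and 16.6% were higher and 15.5% lower at 5 d. Among the 12 largest rises of the naming rule were E2F2, PHACTR3, CCNE2, RRM2, KCNJ9, ESCO2, TK1, PKMYT1, CDC45, MCM10 and CDC6. The 12 largest falls of the rule were NGFR, DBH, ERBB4, INHBA, LRATD2, FGFRL1, H19, TEAD2, PHLDB2, RREB1, NOTCH1 and PACSIN3. Among them were receptors, ligands and an enzyme of noradrenaline synthesis. The rule took genes with at least 5 CPM that were called with and without replicate 5 and did not overlap between the groups. It also asked for the same direction in all 5 pairs, which follows from no overlap. For genes chosen by it, no overlap was a condition of the choice and not a further result.

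Of the 30 tested regulators of the G1/S step, the E2F and cyclin E genes among them, 15 were called higher at 5 d, 2 lower and 13 neither, where 10.8% and 8.86% of all genes were called higher and lower. E2F2, CCNE2, E2F8, E2F1 and MYBL2 rose, and their 5 d means were under their control means. E2F2, an activator E2F, measured 0.642, 0.589, 1.46, 0.607 and 0.887 CPM at 24 h and 20.9, 12, 18.3, 15 and 26.9 CPM at 5 d (log2 difference 4.46 ± 0.25, adjusted p = 1.9e-08). Its 5 d libraries all lay far above its 24 h libraries, and all below the control level of 49.7 ± 1.48 CPM (mean ± SD, n = 5). The gene spans chr1:23832930-23857725 on the hg19 build. CCNE2, a cyclin that drives CDK2 into S phase, measured 0.84, 0.696, 0.553, 0.607 and 1.9 CPM and then 8.11, 7.84, 11.1, 9.53 and 15.4 CPM (log2 difference 3.52 ± 0.32, adjusted p = 1.51e-06), against 29.4 ± 9.26 in the controls. E2F8, an E2F that represses other E2F targets and is itself made in S phase, measured 0.198, 0.0536, 0.101, 0.166 and 0.0634 CPM and then 3.3, 2.01, 3.48, 2.77 and 4.22 CPM (log2 difference 4.66 ± 0.41, adjusted p = 8.32e-07). This was the largest rise of any tested gene, although the gene is weakly counted. E2F1 measured 60.1, 74, 54.2, 59.2 and 109.8 CPM and then 202, 151, 186, 166 and 199.5 CPM (log2 difference 1.34 ± 0.16, adjusted p = 2.05e-05). MYBL2, which encodes B-MYB, went from 32.5–42.5 to 158–237 CPM (log2 difference 2.42 ± 0.12, adjusted p = 4.25e-09). In each of these 5 genes the groups did not overlap. The share of all tested genes whose groups did not overlap is not given here, for these or for the genes below. At 5 d E2F1 stood at 60.4% of its control mean, MYBL2 at 46.7%, E2F2 at 37.5% and CCNE2 at 35.4%, from 23.9%, 8.75%, 1.68% and 3.13% at 24 h.

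**Figure D1:**
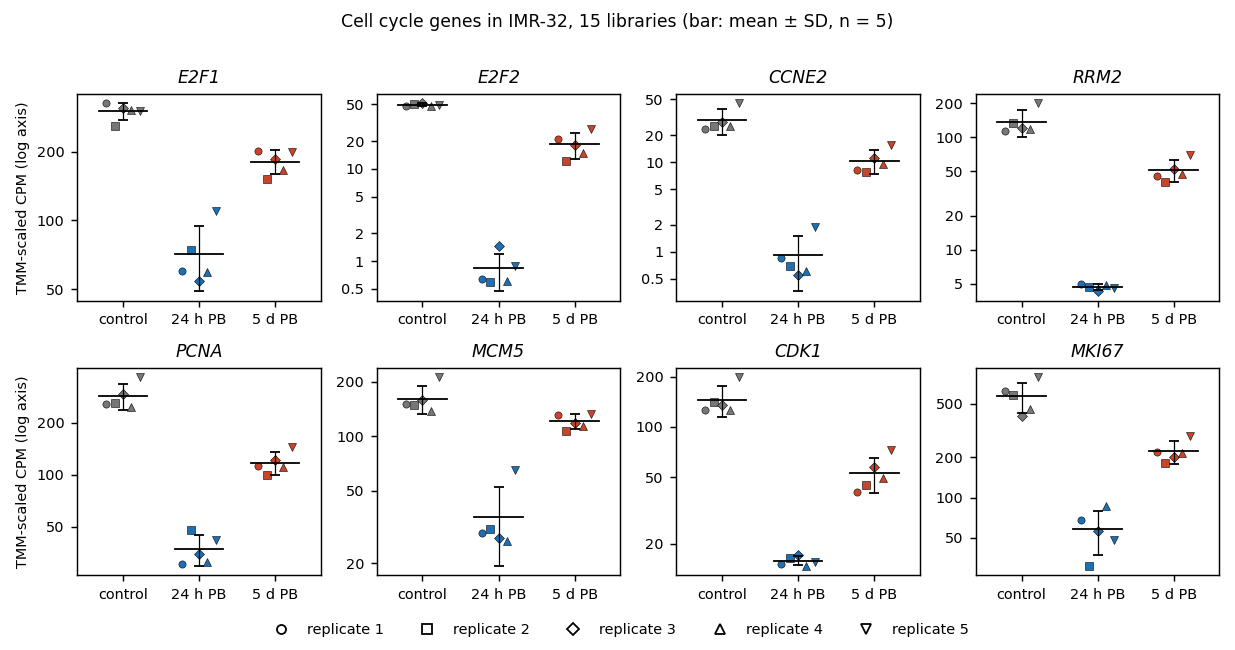
TMM-scaled CPM on a log axis of 8 cell cycle genes in each of the 15 IMR-32 libraries, by group, with a symbol for each replicate and bars for mean ± SD (n = 5). In each panel the 5 d libraries lie above the 24 h libraries and below the controls, as for RRM2, at 4.28 to 4.99 CPM at 24 h and 40.3 to 69.6 at 5 d.

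CCND1 and CCND3, cyclins that activate CDK4 and CDK6, were among the regulators called higher: CCND1 went from 1716–2385 to 2926–3381 CPM (0.61, adjusted p = 0.000182) and CCND3 from 16.1–20.9 to 28.2–37.7 CPM (0.86, adjusted p = 9.8e-06). At 24 h they stood on opposite sides of the control, at a log2 difference of 0.75 for CCND1 and -0.96 for CCND3, both called. The drug's targets themselves were not called, with log2 differences of -0.36 ± 0.12 for CDK4 and 0.18 ± 0.11 for CDK6. RB1 was not called either (0.30, adjusted p = 0.0283), while RBL1, its relative p107, rose (0.86, adjusted p = 0.00213), as did CCNE1 (1.25, adjusted p = 7.74e-05). E2F7 missed the threshold at 1.08 (adjusted p = 0.0749), and passed it with DESeq2 (adjusted p = 0.0247), in a fit of the 10 treated libraries alone (adjusted p = 0.0256), without 24 h replicate 5 (adjusted p = 0.03), without replicate 5 in any group (1.30, adjusted p = 6.58e-05) and with replicate number as a block (adjusted p = 0.00133). The 2 that fell were SKP2, which targets the inhibitor p27 for degradation (-0.80, adjusted p = 0.000124), and E2F5, a repressor E2F (-0.65, adjusted p = 0.000172).

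The inhibitors of these kinases did not move together. Of 6 tested CDK inhibitor genes 1 was called higher and 1 lower, 16.7% each beside 10.8% and 8.86% of all genes. CDKN2D, which encodes p19 of the INK4 family, rose from 8.81–19.7 to 36.4–43.7 CPM (1.35, adjusted p = 0.000142). CDKN2A, whose products include p16 and ARF, fell from 10.2–26.4 to 5.83–7.56 CPM (-1.39, adjusted p = 0.00011). CDKN1A (p21) was at 9.68, 10.8, 10.8, 10 and 16.5 CPM at 24 h and 12.3, 10.8, 11.9, 12.4 and 4.38 CPM at 5 d, with replicate 5 the highest of the former and the lowest of the latter, and its log2 difference of -0.16 ± 0.31 turned to 0.19 without replicate 5. CDKN1B (p27), CDKN1C (p57) and CDKN2C (p18) had log2 differences of 0.09, -0.20 and 0.43, and none was called. CDKN2C was called higher without replicate 2 (0.54, adjusted p = 0.0352), without 24 h replicate 5 (0.50, adjusted p = 0.0246) and without 5 d replicate 2 (0.52, adjusted p = 0.0205) or 4 (0.53, adjusted p = 0.0163). Of 30 tested targets of p53, 2 were called higher and 5 lower, 6.67% and 16.7% beside 10.8% and 8.86% of all genes. The number of lower calls was 2 with library totals in place of TMM factors, 1 without replicate 2, and 3 without replicate 1 or 4, without 24 h replicate 2 or 5 and without 5 d replicate 1, 2 or 4.

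The machinery of DNA replication rose nearly as a whole. Of 57 tested genes of origins, helicase, polymerases and chromatin assembly, 50 were called higher, 1 lower and 6 neither, 87.7% higher and 1.75% lower beside 10.8% and 8.86% of all genes, with a median log2 difference of 1.25 beside -0.0014 for all genes tested. In the 5 same-numbered pairs the mean log2 CPM of the list rose by 1.58, 1.23, 1.57, 1.52 and 1.19. CDC6, which loads the MCM helicase onto origins, measured 2.47, 3.54, 2.97, 2.65 and 15.2 CPM at 24 h and 37.2, 29.9, 41.4, 36.3 and 59.4 CPM at 5 d (log2 difference 2.96 ± 0.48, adjusted p = 0.000371). CDC45, a subunit of the active helicase, measured 2.86, 3.91, 2.67, 3.42 and 5.45 CPM and then 30.1, 23.5, 28.5, 28.7 and 33.4 CPM (log2 difference 2.99 ± 0.19, adjusted p = 4.47e-08). PCNA, the sliding clamp of the polymerases, measured 30.4, 47.9, 34.8, 31.2 and 42.1 CPM and then 112, 99.1, 121, 110.0 and 145 CPM (log2 difference 1.65 ± 0.15, adjusted p = 9.11e-07). MCM5, a helicase subunit, measured 29.3, 30.8, 27.7, 26.5 and 65.5 CPM and then 132, 107, 119, 114 and 132 CPM (log2 difference 1.75 ± 0.22, adjusted p = 3.48e-05). The groups did not overlap in any of these 4. The library 24 h replicate 5 was the highest of the 24 h group for CDC6 and MCM5, as it was for MCM10 (3.75 to 13.3 CPM at 24 h, 36.8 to 61 at 5 d, 2.96, adjusted p = 1.7e-05) and MCM2 (109 to 219 and 241 to 325 CPM, 1.02, adjusted p = 0.000339). Without replicate 5 the list's median was 1.35, with 50 genes called higher again. The exception, POLD2, a subunit of polymerase delta, fell from 118–162 to 79.9–93.3 CPM (-0.62, adjusted p = 0.000109).

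Of 25 tested nucleotide supply genes 6 were called higher, 2 lower and 17 neither, 24% and 8% beside 10.8% and 8.86% of all genes, with a median log2 difference of 0.09. The number called lower was 4 without 24 h replicate 1, without 5 d replicate 3 and without 5 d replicate 5, and the median was -0.065 without the last. RRM2, a subunit of ribonucleotide reductase, measured 4.99, 4.66, 4.28, 4.91 and 4.63 CPM at 24 h and 45.5, 40.3, 52.1, 47.5 and 69.6 CPM at 5 d (log2 difference 3.44 ± 0.18, adjusted p = 9.63e-09). TK1, thymidine kinase, measured 6.52, 9.54, 9.21, 7.17 and 11.9 CPM and then 79.7, 57.4, 75.7, 67.2 and 104 CPM (log2 difference 3.12 ± 0.19, adjusted p = 2.99e-08), and TYMS, thymidylate synthase, rose by 1.79 (adjusted p = 1.57e-07). RRM1 and DCK were also called higher, and the 2 called lower were IMPDH2, of guanine nucleotide synthesis (-0.93, adjusted p = 4.23e-06), and DHODH, of pyrimidine synthesis (-0.94, adjusted p = 0.000195). DNA repair genes followed those of replication, with 31 of 43 tested (72.1%) called higher and 0 lower (1 lower at an unadjusted p under 0.05, 0 with DESeq2, 1 without replicate 5). EXO1, a nuclease, and RAD54L, a DNA translocase of recombination repair, rose by 2.6 and 2.64 (adjusted p = 8.12e-06 and 2.03e-06). UHRF1, which keeps DNA methylation through replication, went from 6.64–16.5 to 50.9–105 CPM (2.93, adjusted p = 2.12e-06), and DNMT1, the maintenance methyltransferase, rose by 0.72 (adjusted p = 0.000862).

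Mitotic genes rose as widely, and their median stayed farther below control. Of 111 tested genes of the spindle, kinetochore, checkpoint and cytokinesis, 96 were called higher, 86.5% beside 10.8% of all genes, and 0 lower (0 lower also at an unadjusted p under 0.05 and with DESeq2), with a median log2 difference of 1.38 (1.18 without replicate 5, with 95 called higher). The mean log2 CPM of the list rose in the 5 same-numbered pairs by 1.22, 1.11, 1.43, 1.23 and 1.47. CDK1, the kinase of mitotic entry, measured 15.1, 16.6, 17.2, 14.8 and 15.7 CPM at 24 h and 40.6, 44.7, 57.3, 49.5 and 72.6 CPM at 5 d (log2 difference 1.74 ± 0.16, adjusted p = 1.06e-06). MKI67, the antigen of the Ki-67 stain, measured 68.1, 31, 56.4, 87.2 and 48.4 CPM and then 218, 181, 199.5, 215 and 290.2 CPM (log2 difference 1.92 ± 0.24, adjusted p = 4.04e-05). SKA3, of the complex that holds kinetochores to microtubules, measured 1.83, 1.5, 2.37, 2.26 and 3.42 CPM and then 15.1, 13.2, 16.3, 11.3 and 23.7 CPM (log2 difference 2.81 ± 0.28, adjusted p = 3.16e-06). For all 3 every 5 d library was above every 24 h library. SKA1 of the same complex (2.73, adjusted p = 1.99e-07), the kinesin KIF18B (2.48, adjusted p = 5.15e-07), CCNA2 (1.84, adjusted p = 2.48e-07), CCNB1 (1.06, adjusted p = 7.19e-05) and the topoisomerase TOP2A (1.38, adjusted p = 2.52e-05) also rose, as did PKMYT1, an inhibitory kinase of CDK1 (3.0, adjusted p = 1.24e-07), and ESCO2, of sister chromatid cohesion (3.16, adjusted p = 2.77e-06). In all 10 of these genes 5 d replicate 5 was the highest library of its group.

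As a share of the control mean, the median DNA replication gene stood at 23.1% at 24 h and 56.7% at 5 d, the median DNA repair gene at 30.2% and 68.5%, and the median mitotic gene at 19% and 48.5%. Over single mitotic genes the 5 d share ran from 26.3% (AURKB) to 99.2% (CENPP), and 5 of the 111 were above 80%. Over single replication genes it ran from 32.5% (UHRF1) to 135.3% (CHTF18), and 4 of 57 were above 80%. At 5 d 100 of 111 mitotic genes and 47 of 57 replication genes were called lower than control, after 110 and 56 at 24 h, beside the background of 15.5% and 10.5% of all genes. MCM2 and MCM5 were among the replication genes not called lower than control at 5 d, with log2 differences of -0.37 and -0.42, and the G1/S regulator CCNE1, at -0.07, was not called lower either. In bulk RNA, more cells in cycle and more of each RNA per cell cannot be told apart.

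**Figure D2:**
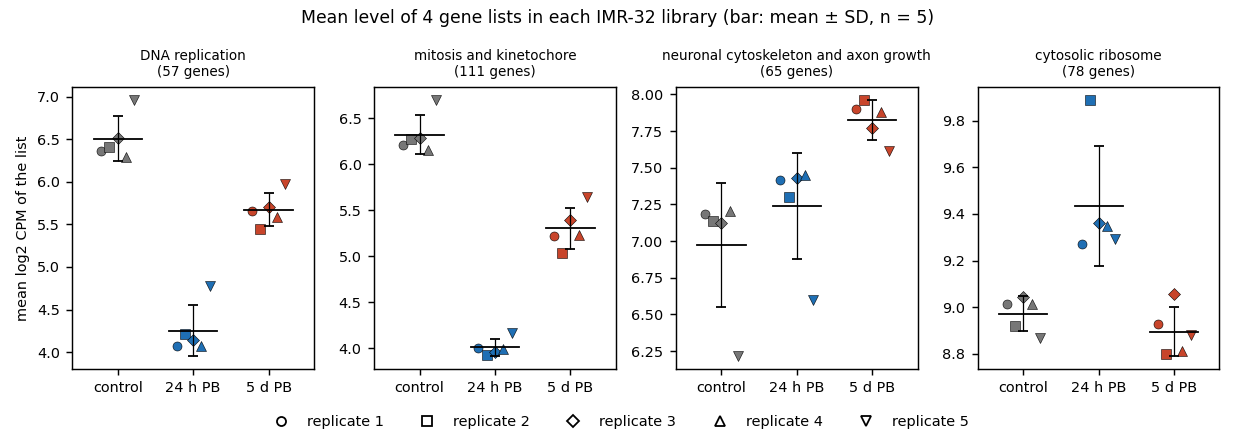
Mean log2 CPM of the tested genes of 4 lists in each IMR-32 library, by group, with a symbol for each replicate and bars for mean ± SD (n = 5). DNA replication and mitotic genes drop at 24 h and come part of the way back at 5 d, neuronal cytoskeleton genes are highest at 5 d, and the ribosomal rise at 24 h is largest in replicate 2, at 9.89 against 9.27 to 9.36 in the other 4.

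Promoters were searched for both kinds of element. Promoter sequences of 300 bases (250 before the start of the gene and 50 after, RefSeq on build GRCh38.p14) matched 41 of the 50 replication genes called higher, 81 of the 96 mitotic genes and 10819 of the 14293 genes tested. An E2F motif, GCGGGAA or TTGGCGC on either strand, stood in 65.9% of the replication promoters, 25.9% of the mitotic promoters and 14.6% of the promoters of all genes tested. The CHR motif TTTGAA on either strand stood in 2.4%, 63.0% and 9.2%, and CCAAT on either strand in 58.5%, 66.7% and 36.3%. Of all 27195 promoters in the reference, 9.4% held an E2F motif, 15.4% CHR and 35.7% CCAAT. Neighbouring motifs can share bases, and a match of letters is a description, not a site of binding. The stretches below, all upstream of the gene start and picked because they hold E2F or CHR motifs, show the letters in members described above, with motif matches in capitals.
E2F2 (chr1:23531253-23531289, minus strand): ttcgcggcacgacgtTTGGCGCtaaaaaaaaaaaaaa
PCNA (chr20:5126628-5126789, minus strand): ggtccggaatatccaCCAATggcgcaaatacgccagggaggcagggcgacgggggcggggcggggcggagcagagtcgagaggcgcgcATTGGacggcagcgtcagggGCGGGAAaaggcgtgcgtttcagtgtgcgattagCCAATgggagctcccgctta
UHRF1 (chr19:4909382-4909500, plus strand): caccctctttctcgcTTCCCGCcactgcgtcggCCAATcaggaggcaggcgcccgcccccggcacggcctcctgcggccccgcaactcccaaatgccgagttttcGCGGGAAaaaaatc
CDK1 (chr10:60778155-60778324, plus strand): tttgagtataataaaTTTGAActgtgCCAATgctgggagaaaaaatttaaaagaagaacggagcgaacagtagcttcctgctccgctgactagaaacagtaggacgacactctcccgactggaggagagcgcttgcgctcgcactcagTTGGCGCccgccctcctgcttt
MKI67 (chr10:128126428-128126536, minus strand): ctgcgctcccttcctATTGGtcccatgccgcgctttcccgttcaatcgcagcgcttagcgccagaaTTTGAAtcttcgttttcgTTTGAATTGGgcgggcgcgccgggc
TOP2A (chr17:40417930-40418146, minus strand): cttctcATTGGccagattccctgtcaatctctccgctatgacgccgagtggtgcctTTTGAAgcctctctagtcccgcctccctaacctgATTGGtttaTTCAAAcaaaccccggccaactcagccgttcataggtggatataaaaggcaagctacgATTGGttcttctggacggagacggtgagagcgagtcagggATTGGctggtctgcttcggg
E2F2 held TTGGCGC, PCNA and UHRF1 held GCGGGAA and CCAAT, and MKI67 and TOP2A held CHR with CCAAT on the reverse strand, read as ATTGG. CDK1 held CHR, CCAAT and TTGGCGC. In MKI67 a CHR and an ATTGG share a base. Other members described differ from these. In the 250 bases upstream of the start, CDC6, CDC45 and MCM10 held CCAAT and no E2F motif, CCNB1 and KIF18B held CCAAT and no CHR, and SKA1 held GCGGGAA and neither of the others.

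MYB, a relative of MYBL2, rose from 0.604–1.39 to 3.44–5 CPM (2.11, adjusted p = 4.64e-06). Of 11 tested genes of the MYC network 2 were called higher and 1 lower, 18.2% and 9.09% beside 10.8% and 8.86% of all genes. The number called lower was 2 without 24 h replicate 3, without 24 h replicate 5, without replicate 5 in any group, in a fit of the 10 treated libraries alone, with the replicate number as a block and with DESeq2. MXD3, a MAX partner made in S phase, rose (1.63, adjusted p = 1.74e-05), and so did MXD1, a MYC antagonist linked to differentiation (0.75, adjusted p = 9.43e-05). MYCN, amplified in these cells, was at 2390.0, 2561, 2477, 2179 and 2498 CPM at 24 h and 2210.0, 1888, 2098, 1865 and 2109 CPM at 5 d, a log2 difference of -0.25 ± 0.09 that was not called, and MYCL fell (-1.50, adjusted p = 7.74e-05).

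**Figure D3:**
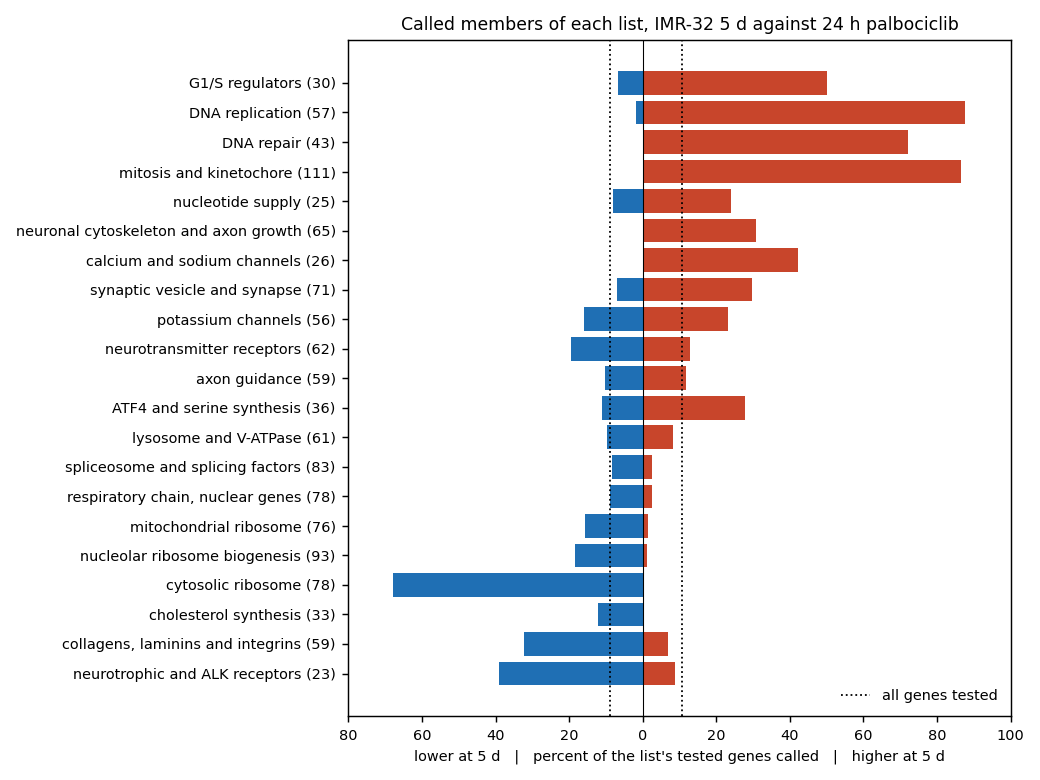
Percent of the tested genes of 21 lists that were called higher (to the right) or lower (to the left) at 5 d than at 24 h, with the number tested in parentheses and dotted lines at the shares of all genes tested (10.8% and 8.86%). The mitosis, DNA replication and DNA repair lists extend farthest to the right and the cytosolic ribosome farthest to the left.

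Ion channel genes of excitable cells rose in part. Of 26 tested voltage-gated calcium and sodium channel genes, 11 were called higher, 42.3% beside 10.8% of all genes, and 0 lower (0 lower also at an unadjusted p under 0.05 and with DESeq2), with a median log2 difference of 0.47. SCN9A, which encodes the sodium channel Nav1.7 of peripheral neurons, measured 3.8, 3.75, 3.47, 5.19 and 0.38 CPM at 24 h and 28.3, 29.3, 14.3, 33.5 and 9.44 CPM at 5 d (log2 difference 2.78 ± 0.58, adjusted p = 0.00233). The groups did not overlap, and replicate 5 was the lowest library in both. SCN2A went from 0.634–4.49 to 9.27–15.8 CPM (2.11, adjusted p = 0.000931) and SCN1A from 0.19–1.82 to 2.78–6.44 CPM (1.93, adjusted p = 0.00322). The calcium channel genes called higher were CACNA1C, CACNA1D, CACNA1G, CACNA1I, CACNB1 and CACNB2. Of 56 tested potassium channel genes 13 were called higher and 9 lower, 23.2% and 16.1% beside 10.8% and 8.86% of all genes (7 and 6 without replicate 2). KCNJ9, an inward rectifier opened by G proteins, measured 1.78, 1.12, 1.86, 1.66 and 0.0634 CPM and then 13.7, 16.2, 10.8, 14 and 6.94 CPM (log2 difference 3.22 ± 0.48, adjusted p = 0.000147), and KCNK10, a leak channel, rose by 1.97 (adjusted p = 0.000152). KCNG1 and KCNK6 fell by 1.37 and 1.44 on the log2 scale (adjusted p = 0.00214 and 0.000358).

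Genes of the axon and the synapse were called higher in 30.8% and 29.6% of cases, against 10.8% of all genes. In the list of neuronal cytoskeleton and axon growth, 20 of 65 tested genes were called higher and 0 lower (2 lower at an unadjusted p under 0.05, 0 with DESeq2, 1 without replicate 5), with a median of 0.47. The count was 29 with the replicate number as a block and 29 without replicate 5, and it was 8 without replicate 2, 12 without replicate 1 and 13 without 5 d replicate 2. STMN4, a neuronal stathmin, measured 32.5, 35.1, 35.9, 37.4 and 2.47 CPM at 24 h and 142, 154, 121, 126 and 69.8 CPM at 5 d (log2 difference 2.09 ± 0.58, adjusted p = 0.0129). GAP43, a growth cone protein, measured 55.8, 74.8, 71.4, 62.4 and 22.1 CPM and then 168, 199, 142, 148 and 103 CPM (log2 difference 1.41 ± 0.33, adjusted p = 0.00484). In both the groups did not overlap and replicate 5 was the lowest library at each time. The STMN4 call was lost without replicate 1 (adjusted p = 0.0585) or replicate 2 (adjusted p = 0.0572). ANK2, an ankyrin of axons, rose (1.22, adjusted p = 0.000257), and NEFM, a neurofilament, rose by 0.52 (adjusted p = 0.00241), just past the fold limit, and fell short of it without replicate 1 (0.46) or replicate 2 (0.50), without 24 h replicate 5 (0.46) and without 5 d replicate 1 (0.45) or 2 (0.46). Other classical neuronal genes were not called: STMN2 was at 1008, 1405, 643, 1046 and 62.4 CPM at 24 h and 924, 1224, 721, 1006 and 636 CPM at 5 d, with a log2 difference of 0.11 ± 0.75 that was -0.08 without replicate 5, and TUBB3 and NEFL had log2 differences of 0.08 ± 0.28 and 0.32 ± 0.25. MAPT (tau) was at 0.80 (adjusted p = 0.334) and was called without replicate 5 at 0.62 (adjusted p = 0.00361).

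At the synapse 21 of 71 tested genes were called higher and 5 lower (7.04% lower beside 8.86% of all genes), and the number called higher was 10 without replicate 2 and 13 without replicate 1. SYT5, a calcium sensor of vesicles, measured 8.49, 7.29, 7.7, 6.95 and 2.92 CPM at 24 h and 32, 35.2, 20.2, 27.1 and 18.5 CPM at 5 d (log2 difference 1.99 ± 0.33, adjusted p = 0.000392), and NLGN3, a postsynaptic adhesion protein, measured 6.08, 5.25, 7.29, 9.32 and 5.2 CPM and then 24.9, 24.5, 22, 21.2 and 21 CPM (log2 difference 1.78 ± 0.17, adjusted p = 1.75e-06). The groups did not overlap for either gene. DNM3, a dynamin, rose (1.79, adjusted p = 0.000444). In the other direction, SYT2 fell from 12.4–16.4 to 3.42–7.05 CPM (-1.66, adjusted p = 5.08e-06), and SLC17A7, a vesicular glutamate transporter, from 33.2–59.5 to 18.4–30.5 CPM (-1.09, adjusted p = 0.00113). SCG2, a granin of dense-core vesicles, measured 86.3, 94.9, 81.9, 85.6 and 75.6 CPM and then 305, 350.5, 283, 302 and 241 CPM (log2 difference 1.80 ± 0.12, adjusted p = 7.88e-08), whereas CHGA was not called (-0.06, adjusted p = 0.846) and VGF fell (-0.70, adjusted p = 0.00511). PHACTR3, a regulator of protein phosphatase and actin expressed in brain, measured 0.395, 0.428, 2.31, 1.54 and 0.254 CPM and then 11.2, 12.7, 14, 10.6 and 10.8 CPM (log2 difference 3.56 ± 0.58, adjusted p = 0.000325). Among 59 axon guidance genes 7 were higher and 6 lower, near the background (12 and 11 with the replicate number as a block), for example the receptor NRP1 (1.0, adjusted p = 1.93e-05) and the ligand EFNA1 (-1.98, adjusted p = 0.000225).

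**Figure D4:**
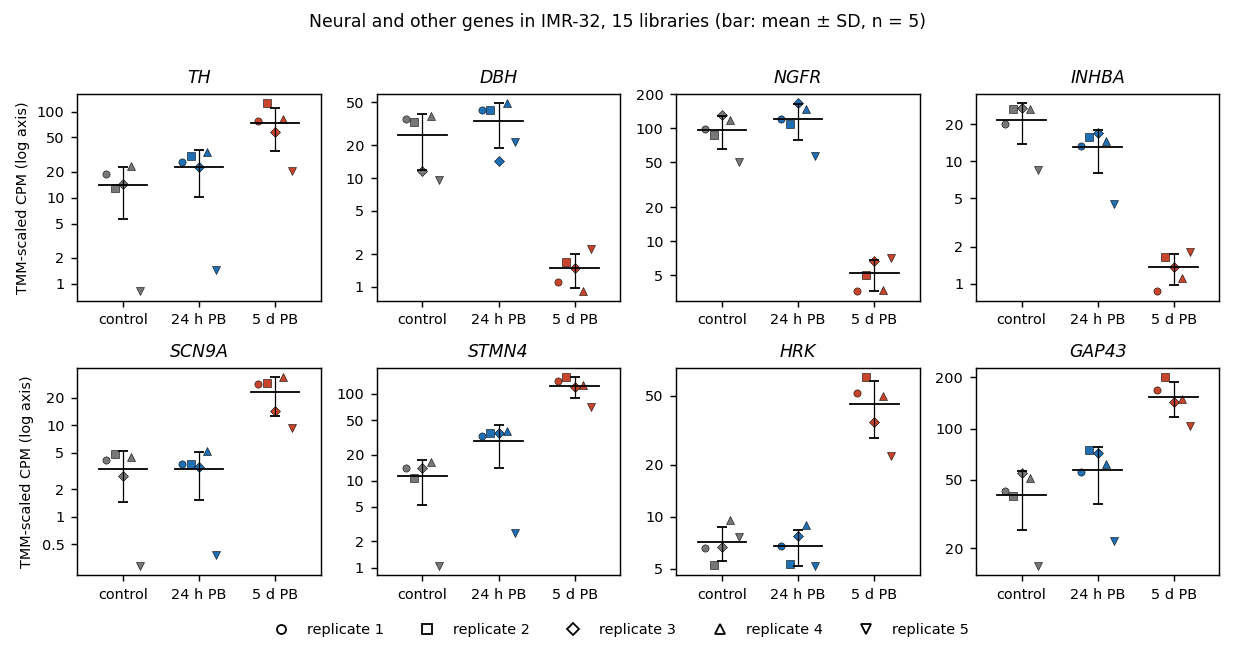
TMM-scaled CPM on a log axis of 8 genes in each of the 15 IMR-32 libraries, by group, with a symbol for each replicate and bars for mean ± SD (n = 5). DBH and NGFR are far lower at 5 d than in both other groups, while TH, SCN9A, STMN4, GAP43 and HRK have their highest means at 5 d, and replicate 5 is the lowest library of TH, SCN9A, STMN4 and GAP43 in every group.

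Of 15 tested genes of catecholamine synthesis and storage 2 were called higher and 2 lower, 13.3% each and near the shares of all genes, 10.8% and 8.86% (0 higher without replicate 1 or 3, and 4 lower without replicate 5 or 24 h replicate 5). DBH, which converts dopamine to noradrenaline, measured 42.2, 42.2, 14.3, 49.3 and 21.5 CPM at 24 h and 1.1, 1.7, 1.48, 0.905 and 2.22 CPM at 5 d (log2 difference -4.51 ± 0.50, adjusted p = 1.36e-05), and every 5 d library lay below every 24 h library and below the lowest control (the gene spans chr9:136501485-136524451 on hg19). TH, the first and rate-limiting enzyme, measured 25.8, 30.6, 22.6, 34.3 and 1.46 CPM at 24 h and 78.5, 126, 57.6, 82.4 and 20.3 CPM at 5 d. It was higher at 5 d in 5 of 5 same-numbered pairs, with a log2 difference of 1.66 ± 0.70 that missed the threshold (adjusted p = 0.0776) and was called with the replicate number as a block (adjusted p = 0.000507), without replicate 5 (adjusted p = 0.000148) and without 5 d replicate 5 alone (adjusted p = 0.044). DDC, the enzyme between them, was not called (0.38, adjusted p = 0.43), and SPR, which makes the cofactor of TH, fell (-0.82, adjusted p = 0.000119). Of 26 tested transcription factors of the adrenergic state, 1 was called higher and 2 lower, 3.85% and 7.69% beside 10.8% and 8.86% of all genes (8 and 5 with the replicate number as a block, 4 and 4 without replicate 5). HAND2, GATA3 and ISL1 had log2 differences of -0.21 ± 0.13, -0.18 ± 0.10 and -0.27 ± 0.21, none of them called. TWIST1 fell (-0.71, adjusted p = 0.00024).

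Of 23 tested neurotrophic and ALK receptor genes and ligands, 9 were called lower and 2 higher, 39.1% and 8.7% beside 8.86% and 10.8% of all genes (0 higher without replicate 1), with a median log2 difference of -0.15. NGFR, the p75 neurotrophin receptor, measured 122, 110.1, 168, 149 and 56.6 CPM at 24 h and 3.59, 5.04, 6.67, 3.73 and 7.16 CPM at 5 d (log2 difference -4.53 ± 0.34, adjusted p = 3.44e-07), with no overlap and a control mean of 97 ± 31 CPM (SD, n = 5). Of its exon bases 1126 overlap an annotated gene on the opposite strand, whose reads may be included. ERBB4, a neuregulin receptor, measured 11.2, 8.57, 13.9, 15.2 and 2.28 CPM and then 0.29, 1.27, 0.798, 1.01 and 1.05 CPM (log2 difference -3.52 ± 0.54, adjusted p = 0.000221). INHBA, a subunit of activin, measured 13.2, 15.6, 17.1, 14.5 and 4.44 CPM and then 0.869, 1.64, 1.37, 1.12 and 1.83 CPM (log2 difference -3.24 ± 0.39, adjusted p = 2.48e-05). NOG, the BMP antagonist noggin, fell (-2.25, adjusted p = 0.00012), as did CHRNA1, a muscle-type acetylcholine receptor subunit (-2.39, adjusted p = 0.000263). ALK was at 88.8, 64, 124, 94.1 and 238 CPM and then 185, 158, 171, 170.4 and 147 CPM. It was not called (0.45, adjusted p = 0.248), but it was called higher without 24 h replicate 5 (0.84, adjusted p = 0.00669), without replicate 5 in any group (0.88, adjusted p = 0.000784) and with the replicate number as a block (adjusted p = 0.0474).

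Of 59 tested collagens, laminins, integrins and related genes, 19 were called lower and 4 higher, 32.2% and 6.78% beside 8.86% and 10.8% of all genes, with a median of -0.29 (21 lower and 9 higher without replicate 5, 2 higher without replicate 1). COL1A1, a chain of collagen I, measured 89, 84.1, 67.5, 98.2 and 108 CPM at 24 h and 22.6, 23.5, 24, 21.7 and 35.5 CPM at 5 d (log2 difference -1.81 ± 0.17, adjusted p = 2.03e-06). NID1, of the basement membrane, and ITGA2, an integrin, fell by 1.96 and 2.39 on the log2 scale (adjusted p = 0.000396 and 0.00013). PCDH8, a protocadherin, went from 9.16–12.9 to 1.49–3.33 CPM (-2.35, adjusted p = 2.47e-07) and CDH11, a mesenchymal cadherin, from 5.25–12.3 to 0.0533–3 CPM (-3.24, adjusted p = 0.00139). NOTCH1, the receptor of the Notch pathway, measured 48, 31.6, 21.2, 56.4 and 24.5 CPM and then 6.9, 6.1, 4.05, 7.3 and 8.11 CPM (log2 difference -2.48 ± 0.29, adjusted p = 2.06e-05). VIM, the intermediate filament vimentin, fell by 1.05 (adjusted p = 0.0219), a call that was lost without replicate 1, 2 or 4, without 24 h replicate 5, without 5 d replicate 2 or 4 and with no filter on low counts, with adjusted p up to 0.0894. The binding proteins of insulin-like growth factors IGFBP2 and IGFBP4 fell by 1.27 and 1.87 on the log2 scale (adjusted p = 9.02e-06 and 0.00159). The remaining falls among the 12 were in FGFRL1, a receptor without a kinase (-2.93, adjusted p = 0.000161), LRATD2 (-3.0, adjusted p = 2.95e-07), TEAD2, a transcription factor of the Hippo pathway (-2.54, adjusted p = 1.72e-05), PHLDB2 (-2.52, adjusted p = 7.88e-05), the zinc finger factor RREB1 (-2.52, adjusted p = 0.000139), PACSIN3 (-2.47, adjusted p = 2.21e-05) and the imprinted RNA H19 (-2.61, adjusted p = 0.000691).

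Genes of the cytosolic ribosome fell after 24 h. Of 78 tested, 53 were called lower at 5 d than at 24 h, 67.9% beside 8.86% of all genes, and 0 higher (0 higher also at an unadjusted p under 0.05 and with DESeq2), with a median log2 difference of -0.57. This count rests in part on 24 h replicate 2, without which 22 were called lower and the median was -0.44, and 19 were called lower without replicate 2 in any group. The mean log2 CPM of the list was lower at 5 d in 5 of 5 same-numbered pairs, with differences of -0.34, -1.09, -0.31, -0.54 and -0.41. RPSA measured 1435, 2387, 1624, 1435 and 1763 CPM at 24 h and 817, 683, 988, 792 and 1057 CPM at 5 d (log2 difference -0.99 ± 0.14, adjusted p = 8.61e-05), and RPLP0 and RPS27A fell by 0.87 and 0.86 on the log2 scale (adjusted p = 2.96e-05 and 0.000118). At 24 h 34 of the 78 had been called higher than control, where 7.87% of all genes were, and at 5 d 1 was called lower, where 15.5% of all genes were. Ribosomal protein genes have many near-identical processed pseudogenes, so their counts are uncertain. Of 93 nucleolar genes of ribosome assembly 17 were lower and 1 higher, 18.3% lower beside 8.86% of all genes, and 11 were lower without 24 h replicate 5 and 9 without replicate 2. They held the methyltransferase FBL (-0.82, adjusted p = 0.000133), NPM1 (-0.82, adjusted p = 0.000126) and NOB1 (-0.88, adjusted p = 3.16e-06) on the lower side and POLR1E, a subunit of RNA polymerase I, on the higher (0.66, adjusted p = 3.94e-05). Of 76 genes of the mitochondrial ribosome 12 were lower and 1 higher, 15.8% lower beside 8.86% of all genes (6 lower without 24 h replicate 2 or without replicate 2, 19 without replicate 3), led by MRPL23 (-0.82, adjusted p = 0.000212).

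Of 33 tested genes of cholesterol synthesis and uptake 4 were called lower, 12.1% beside 8.86% of all genes, and 0 higher (0 higher also at an unadjusted p under 0.05 and with DESeq2). The number called lower was 12 without replicate 5, 10 without 5 d replicate 5 and 2 without replicate 2 or 4. INSIG1, which holds back sterol synthesis, measured 80.4, 88, 59.9, 74.5 and 38.2 CPM at 24 h and 28.9, 33, 25.1, 29.4 and 53.2 CPM at 5 d (-1.01, adjusted p = 0.00977), a call lost without replicate 1, 2 or 4 (adjusted p = 0.0581 to 0.0634), and SCD, the stearoyl-CoA desaturase, fell (-0.75, adjusted p = 0.00255). Replicate 5 was the lowest library of INSIG1 and SCD at 24 h and the highest at 5 d. Of 36 tested targets of ATF4 and genes of serine synthesis and amino acid transport, 10 were called higher and 4 lower, 27.8% and 11.1% beside 10.8% and 8.86% of all genes, among them ATF3, a stress factor (1.72, adjusted p = 4.03e-05), the transporter SLC1A4 (1.30, adjusted p = 5.38e-08) and, on the lower side, CEBPB (-1.45, adjusted p = 0.00113). Of 37 tested genes of glycolysis and hypoxia 4 were called higher and 3 lower, 10.8% and 8.11% beside 10.8% and 8.86% of all genes, with a median log2 difference of -0.04. The number called higher was 2 without replicate 2 or 4, without 24 h replicate 4 and without 5 d replicate 2 or 4, and the number lower was 1 without replicate 1, 2 or 3 and without 5 d replicate 2. VEGFA, the angiogenic growth factor, and PFKP, a phosphofructokinase, rose by 0.87 and 0.60 (adjusted p = 0.00398 and 0.000402). DDIT4, an inhibitor of mTOR signalling, fell by 0.76 on the log2 scale (adjusted p = 0.000543). P4HA1, a collagen prolyl hydroxylase, fell by 0.84 (adjusted p = 0.0319) and CA12, a carbonic anhydrase, by 0.75 (adjusted p = 0.0192). The CA12 call was lost without replicate 1, 2 or 3, without 24 h replicate 3 and without 5 d replicate 2, with adjusted p up to 0.089. The P4HA1 call was lost without replicate 1, 2, 3 or 4, without 24 h replicate 2 or 5, without 5 d replicate 1, 2, 3 or 4 and with no filter on low counts, with adjusted p up to 0.107. The retinoic acid receptors RARA and RARG fell by 0.59 and 0.76 on the log2 scale (adjusted p = 1.56e-05 and 4.32e-05).

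In the BCL2 family list, which holds regulators of cell death, 2 of 22 tested genes were called higher and 2 lower, 9.09% each, near the shares of all genes (4 higher without replicate 5). HRK, a BH3-only protein known from neurons deprived of growth factor, measured 6.82, 5.36, 7.7, 8.94 and 5.2 CPM at 24 h and 52, 64.1, 35.3, 50 and 22.6 CPM at 5 d (log2 difference 2.72 ± 0.26, adjusted p = 2.07e-06). The groups did not overlap, and 5 d replicate 5 was the lowest at 5 d. BMF, another BH3-only protein, and BAK1, a pore former, fell by 0.92 and 0.78 on the log2 scale (adjusted p = 5.23e-05 and 0.000166). JUN, a stress-responsive factor, rose by 1.20 (adjusted p = 0.00544).

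The same interval was tested against SH-SY5Y, a line without amplified MYCN, whose 5 replicates at 24 h and 5 at 5 d matched the times of IMR-32. Over 16282 genes tested in a fit of all 45 libraries, the 5 d against 24 h difference was called higher in IMR-32 than in SH-SY5Y for 6.91% and lower for 7.78%. Against SK-N-BE(2)C, collected at 7 d instead of 5 d, the shares were 9.36% and 12%, and there line and time cannot be told apart. Of the 57 DNA replication genes, 34 were called higher in IMR-32 than in SH-SY5Y by this test, and the medians within the lines were 1.25 in IMR-32, 0.51 in SH-SY5Y and 0.01 in SK-N-BE(2)C. Of the 111 mitotic genes 35 were called higher in IMR-32, with medians of 1.38, 0.81 and 0.26. The log2 difference of E2F2 was 1.36 in SH-SY5Y, and the difference between the lines was 3.06 ± 0.67, adjusted p = 0.000826. For PCNA it was 0.45 there (between the lines 1.17 ± 0.33, adjusted p = 0.00918) and for MCM5 0.50 (between the lines 1.22 ± 0.28, adjusted p = 0.0013). RRM2, CDK1 and MKI67, with 2.02, 1.13 and 1.58 in SH-SY5Y, were not called different, at 1.38 ± 0.69, adjusted p = 0.15 for RRM2, 0.58 ± 0.32, adjusted p = 0.203 for CDK1 and 0.30 ± 0.63, adjusted p = 0.8 for MKI67.

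Of 65 genes of the neuronal cytoskeleton 23 were called higher in IMR-32 than in SH-SY5Y and 0 lower, where 6.91% and 7.78% of all genes were, and the list's median in SH-SY5Y was -0.13. Against SK-N-BE(2)C, with a median of 0.28 over 7 d, 8 were called higher in IMR-32 and 6 lower, where 9.36% and 12% of all genes were. GAP43 had a log2 difference of -0.48 in SH-SY5Y (between the lines 1.85 ± 0.31, adjusted p = 3.69e-05) and NEFM one of -0.93 (between the lines 1.41 ± 0.23, adjusted p = 1.47e-05). Of 62 neurotransmitter receptor genes 6 were called higher and 8 lower, near the shares of all genes, and of 23 neurotrophic and ALK receptor genes and ligands 1 was called higher and 5 lower. DBH and NGFR were at -0.92 and -1.55 there, and their difference in IMR-32 was more negative, by -3.63 ± 0.50, adjusted p = 1.58e-06 for DBH and -3.02 ± 0.54, adjusted p = 7.94e-05 for NGFR. Of the 78 ribosomal protein genes 33 were called lower in IMR-32 than in SH-SY5Y. The pro-apoptotic HRK was at 1.42 in SH-SY5Y (between the lines 1.25 ± 0.39, adjusted p = 0.016) and at 2.92 in SK-N-BE(2)C over 7 d. LRATD2, at -3.14 in SH-SY5Y, was not called different from IMR-32 (between the lines 0.10 ± 0.12, adjusted p = 0.59).

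**Figure D5:**
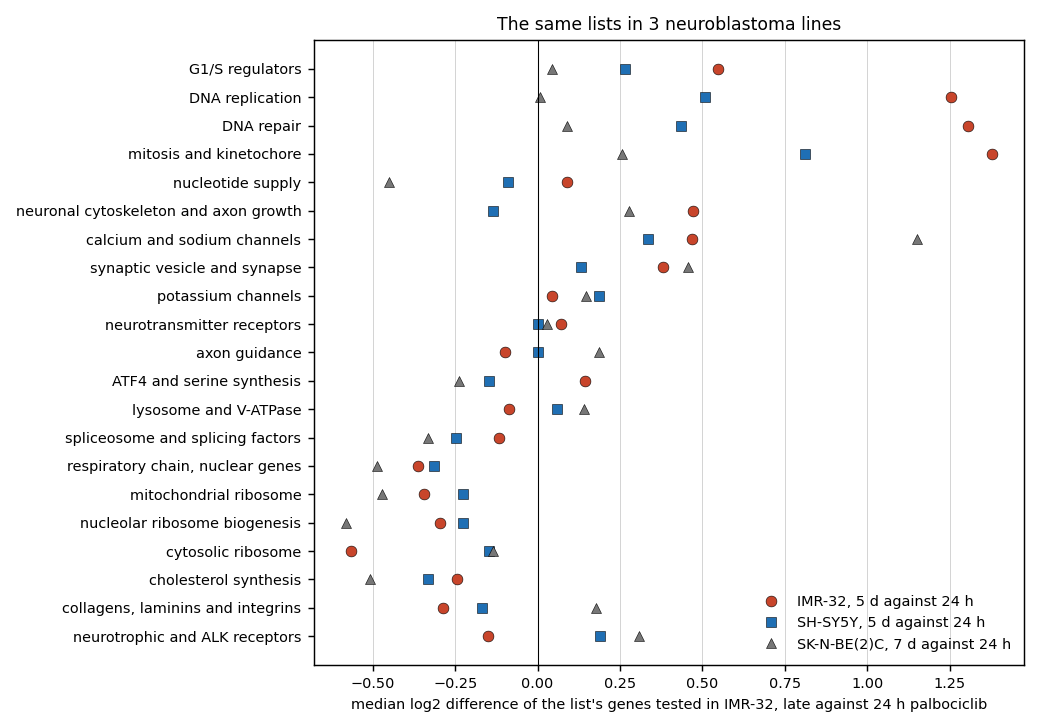
Median log2 difference of the tested genes of 21 lists between late and 24 h PB in IMR-32 (circles, 5 d), SH-SY5Y (squares, 5 d) and SK-N-BE(2)C (triangles, 7 d). The cell cycle lists lie farthest right in IMR-32, at 1.25 for DNA replication against 0.51 in SH-SY5Y, and the neuronal cytoskeleton list is on opposite sides of 0 in IMR-32 and SH-SY5Y.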

How the data were processed

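RNA was poly(A)-selected, made into directional libraries and sequenced in pairs. The authors trimmed reads with Trim Galore 0.6.4, aligned them to hg19 with STAR and deposited raw counts per gene. Their CPM tables and tables of fold changes and adjusted p-values from DESeq2 1.32.0 were not used. For the counting, strand setting and annotation are not given in the sources used here. Genes with exons opposite those of another gene are therefore uncertain. Of the genes named, 135 were followed in this and the later checks. Among these 135 this holds, by 500 bases or more of GENCODE v44lift37 exons, for 23: BMP4, CCNE2, CDK4, CDKN2A, CDKN2C, E2F5, HAND2, LRATD2, MCM2, MXD3, NEFL, NEFM, NGFR, NRP1, PKMYT1, RAD54L, RARA, RPSA, SCN1A, SCN9A, SYT2, TYMS and VIM. Genes named only in passing, such as RRM1, DCK, the calcium channel genes, AURKB, CENPP and CHTF18, were not followed.

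Counts were tested with edgeR 4.0.16 in R 4.3.3 (filterByExpr with a minimum count of 10, TMM factors, robust quasi-likelihood fit with 1 mean per group and no block). The fit was run first on simulated counts. These held no replicate effects, so that check does not cover libraries that stand apart from their group. Alternatives were size factors, library totals, no filter, the treated libraries alone, DESeq2 1.42.0, other fold limits, the replicate block and leaving out each replicate. Each replicate was a passage plated by itself. Deviations of same-numbered 24 h and 5 d libraries correlated at 0.272, 0.14, 0.117, 0.252 and 0.51. The 24 h replicates 1, 3 and 4 correlated more with 5 d replicate 2, at 0.313, 0.167 and 0.371. For 24 h replicate 2 the closest was 5 d replicate 1, at 0.195. Only for replicate 5 was the same number the closest, so these values do not show that the other numbers pair the libraries. Pair differences and the block took the numbers as pairs all the same, and the main fit did not. Genes named were the 12 largest rises and falls with at least 5 CPM, called with and without replicate 5, not overlapping and moving alike in all 5 pairs, up to 3 called genes each way per list with at least 2 CPM, and a set of regulators and markers. Members and lists were chosen with earlier results of these data known. Some genes that the rule named are not reported here.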

Additional observations from a re-analysis of the deposited data

Results flagged for a closer look

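In groups of 5 libraries, a value was singled out where its gap to the nearest other library as a share of the group's range was above Dixon's 95% limit. Of 270 tests, 2 for each of the 135 genes followed, 40 passed, where chance alone gives about 1 in 20. Of these, 21 were 24 h replicate 5, 15 were 5 d replicate 5 and 4 were other libraries. Among genes of the cell cycle and of DNA repair, 24 h replicate 5 was above the other 4 libraries for CCNE2 at 1.9 CPM against 0.553 to 0.84, CDC6 at 15.1 CPM against 2.47 to 3.54, CDKN1A at 16.5 CPM against 9.68 to 10.8, E2F7 at 3.68 CPM against 1.21 to 1.56 and EXO1 at 15.3 CPM against 5.46 to 7.14. Of the same genes of the cell cycle and of DNA repair, 24 h replicate 5 was above the other 4 libraries for MCM10 at 13.3 CPM against 3.75 to 4.3, MCM2 at 219 CPM against 109 to 129, MCM5 at 65.5 CPM against 26.5 to 30.7, RAD54L at 6.72 CPM against 2.16 to 3.2 and UHRF1 at 16.5 CPM against 6.64 to 8.54. Among neural, receptor and transcription factor genes, 24 h replicate 5 was above the other 4 libraries for FGFRL1 at 88.8 CPM against 25.1 to 35.2 and ID4 at 2.09 CPM against 0.993 to 1.19. Among matrix, adhesion and metabolic genes, 24 h replicate 5 was above the other 4 libraries for P4HA1 at 25.7 CPM against 12.1 to 15, VEGFA at 11 CPM against 6.96 to 8.1 and VIM at 647 CPM against 250 to 335. Among genes of the cell cycle and of DNA repair, 24 h replicate 5 was below the other 4 libraries for MXD3 at 1.84 CPM against 4.28 to 5.04. Among neural, receptor and transcription factor genes, 24 h replicate 5 was below the other 4 libraries for DDC at 18.6 CPM against 53.6 to 64.7, JUN at 50.5 CPM against 147 to 167, NEFL at 56.8 CPM against 122 to 131, STMN4 at 2.47 CPM against 32.4 to 37.4 and SYT5 at 2.92 CPM against 6.95 to 8.49. Among genes of the cell cycle and of DNA repair, 5 d replicate 5 was above the other 4 libraries for SKA1 at 17 CPM against 11.3 to 12.7. Among neural, receptor and transcription factor genes, 5 d replicate 5 was above the other 4 libraries for NOG at 3.89 CPM against 0.848 to 1.54, RARG at 19.8 CPM against 13.8 to 15.2 and TEAD2 at 15.3 CPM against 7.95 to 9.35. Among matrix, adhesion and metabolic genes, 5 d replicate 5 was above the other 4 libraries for CA12 at 11.3 CPM against 5.51 to 7.03, CDH11 at 3 CPM against 0.0533 to 0.627, COL1A1 at 35.5 CPM against 21.7 to 24, IGFBP4 at 29.1 CPM against 7.56 to 11.4 and INSIG1 at 53.2 CPM against 25.1 to 33. Of the same matrix, adhesion and metabolic genes, 5 d replicate 5 was above the other 4 libraries for LRATD2 at 8.83 CPM against 4.27 to 5.46, P4HA1 at 12 CPM against 7.3 to 8.53 and SCD at 898 CPM against 481 to 506. Among genes of the cell cycle and of DNA repair, 5 d replicate 5 was below the other 4 libraries for CDKN1A at 4.39 CPM against 10.8 to 12.4. Among neural, receptor and transcription factor genes, 5 d replicate 5 was below the other 4 libraries for DDC at 36.7 CPM against 68.9 to 80. Among matrix, adhesion and metabolic genes, 5 d replicate 5 was below the other 4 libraries for PFKP at 132 CPM against 197 to 204. CDKN2A in 5 d replicate 2 was below its group, at 5.83 CPM against 7.12 to 7.56. RPLP0 in 24 h replicate 2 was above its group, at 4260 CPM against 2780 to 3120. RPS27A in 24 h replicate 2 was above its group, at 768 CPM against 460 to 506. SLC1A4 in 5 d replicate 1 was above its group, at 51.3 CPM against 42.5 to 44.2.

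Of the 135 genes followed, 77 had a 5 d against 24 h difference in IMR-32 that differed from that in SH-SY5Y by the interaction test of the 45-library edgeR fit, where 6.91% of all genes were higher and 7.78% lower. Most of these genes were named for a large difference in IMR-32, so their count is no measure of how often genes differ between the lines. The values below are the difference of the 2 log2 differences, IMR-32 minus SH-SY5Y. Among genes of DNA synthesis, repair and the G1/S step, CCND3 (0.57), CDC45 (1.37), CDC6 (2.39), CDKN1A (1.45), CDKN2C (0.59), CDKN2D (0.63), E2F2 (3.06), EXO1 (2.35), MCM10 (1.94), MCM5 (1.22), PCNA (1.17), RAD54L (1.14), RBL1 (0.72), TK1 (1.64), TYMS (1.27) and UHRF1 (2.64) were more positive in IMR-32. Among genes of DNA synthesis, repair and the G1/S step, CDKN2A (-1.52), IMPDH2 (-0.87) and SKP2 (-0.86) were more negative in IMR-32. Among genes of mitosis and cohesion, ESCO2 (1.85), KIF18B (1.58), PKMYT1 (1.73), SKA1 (1.54) and SKA3 (1.41) were more positive in IMR-32. Among genes of the MYC network, MXD1 (0.68) was more positive in IMR-32. Among genes of the MYC network, MYCL (-1.72) and MYCN (-1.14) were more negative in IMR-32. Among neuronal cytoskeleton and synapse genes, ANK2 (1.35), GAP43 (1.85), NEFL (1.33), NEFM (1.41), NLGN3 (0.99), PHACTR3 (3.43) and SYT5 (0.83) were more positive in IMR-32. Among neuronal cytoskeleton and synapse genes, SLC17A7 (-2.92) and SYT2 (-1.71) were more negative in IMR-32. Among channel genes, KCNJ9 (3.19), SCN2A (1.46) and SCN9A (2.57) were more positive in IMR-32. Among channel genes, KCNG1 (-1.90) and KCNK6 (-1.36) were more negative in IMR-32. Among transmitter enzymes, receptors, ligands and guidance genes, DDC (1.79) and NRP1 (3.79) were more positive in IMR-32. Among transmitter enzymes, receptors, ligands and guidance genes, BMP4 (-4.52), CHRNA1 (-7.15), DBH (-3.63), DRD2 (-1.48), EFNA1 (-2.39), ERBB4 (-4.58), FGFRL1 (-2.08), INHBA (-2.90), NGFR (-3.02) and NOTCH1 (-1.61) were more negative in IMR-32. Among transcription regulators, ATF3 (1.59) and ID4 (2.35) were more positive in IMR-32. Among transcription regulators, ISL1 (-0.70), RARG (-0.94), RREB1 (-2.42) and TEAD2 (-2.02) were more negative in IMR-32. Among adhesion, matrix and trafficking genes, CDH11 (-3.02), COL1A1 (-1.43), ITGA2 (-2.12), NID1 (-1.89), PACSIN3 (-2.93), PCDH8 (-3.15) and PHLDB2 (-2.71) were more negative in IMR-32. Among ribosomal and nucleolar genes, POLR1E (0.71) was more positive in IMR-32. Among ribosomal and nucleolar genes, NOB1 (-0.63), RPLP0 (-0.54), RPS27A (-0.68) and RPSA (-0.64) were more negative in IMR-32. Among genes of cell death and metabolism, with H19, HRK (1.25), PFKP (1.43), SLC1A4 (1.72) and VEGFA (0.64) were more positive in IMR-32. Among genes of cell death and metabolism, with H19, BMF (-1.17) and H19 (-6.15) were more negative in IMR-32.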

How the results depend on the processing

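No call among the 2803 changed direction under any alternative. The number of calls was 4914 with no limit on the fold (2366 higher, 2548 lower) and 1144 with a log2 limit of 1 (715 higher, 429 lower). With 1 replicate left out, in both groups or in 1, the number of calls ran from 1932 to 3518, with 1092 to 1941 higher and 840 to 1577 lower, the fewest lower without replicate 2. The number of genes whose difference differed from SH-SY5Y was 2392, and 3653 with no limit on the fold. The median of the mitotic genes was 1.38, and ran from 1.18 to 1.39 with 1 replicate left out, 1.18 of it without replicate 5 and 1.20 without 5 d replicate 5, and was 1.18 with the replicate block and no replicate 5. That of the replication genes ran from 1.15 to 1.47. Of the 135 genes followed through the other fits, 115 were called, and 109 of these kept their call under each other fit that gave a value. CA12, INSIG1, NEFM, P4HA1, STMN4 and VIM lost theirs in some. DESeq2 gave no adjusted p for CDH11, and other fold limits were counted over all genes alone. RRM1, DCK and the calcium channel genes named as called were not followed. With the replicate number as a block, TH, ALK and E2F7 were called, and no other call among the 135 genes followed changed. The number of calls over all genes was then 3307. Each 24 h library correlated best with its own number in 1 of 5 cases. Genes not called that changed sign were CDKN1A (0.19 with the block and no replicate 5, -0.29 to 0.19 with 1 replicate left out), CHGA (0.20, -0.18 to 0.21), STMN2 (-0.053, -0.19 to 0.39) and TUBB3 (-0.076 to 0.22 with 1 left out). The cause was not tested. The median of all genes was -0.0014 and ran from -0.00669 without 5 d replicate 5 to 0.0551 with library totals. At this depth, genes under about 1 CPM rest on few counts per library.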

Other observations

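Some smaller groups of genes stand outside the accounts above. Genes named in this paragraph for the first time were chosen after their values were seen where the naming rule did not hold them. Among 19 tested interferon-stimulated and antigen presentation genes, 7 were called lower at 5 d and 1 higher, 36.8% and 5.26% against 8.86% and 10.8% of all genes, and 3 were lower in a fit of the 10 treated libraries alone. Of 18 tested ID genes and BMP or TGF-beta feedback genes, 4 were lower and 1 higher (22.2% and 5.56%), and 5 lower and 4 higher without replicate 5. The mean log2 CPM of this list differed by -0.09, -0.35, 0.51, 0.02 and -0.79 in the 5 same-numbered pairs. BMP4, a ligand of this pathway, fell by 2.02 on the log2 scale from a mean of 1.3 to 0.317 CPM, and ID4, an inhibitor of bHLH factors, rose by 1.16 from 1.31 to 2.93 CPM (adjusted p = 0.000407 and 0.000927). In the list of 62 neurotransmitter receptor genes 12 were lower and 8 higher, 19.4% and 12.9% (12 and 14 with the replicate number as a block, 14 and 13 without replicate 5, 8 lower without replicate 4), and DRD2, a dopamine receptor, fell by 1.31 from 9.07 to 3.67 CPM (adjusted p = 2.34e-05).

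The retinoid list of 15 tested genes held 5 called lower and 1 higher, 33.3% and 6.67% beside 8.86% and 10.8% of all genes (2 lower without replicate 4, and 3 without replicate 1 or 2). The number higher was 3 with the replicate number as a block, 2 without replicate 5, 4 with the block and no replicate 5, and 0 without replicate 1, 2, 3 or 4 and in a fit of the 10 treated libraries alone. The 16 tested genes of the secretory phenotype of senescent cells held 5 lower and 2 higher, 31.2% and 12.5% (3 lower without replicate 2 and 8 without replicate 5). Of 28 tested genes of the mesenchymal state 5 were lower, 17.9%, and 0 higher (0 higher also at an unadjusted p under 0.05 and with DESeq2). Without replicate 5 there were 9 lower and 1 higher, and without replicate 1 the number lower was 2. Of 23 cadherins and protocadherins 5 were lower and 2 higher, 21.7% and 8.7% (3 lower without replicate 1 or 3, 9 without replicate 5). Of 61 lysosomal genes 8.2% were higher and 9.84% lower, near the shares of all genes. Of 44 genes of the primary cilium 4 were lower, 9.09%, and 0 higher (3 higher at an unadjusted p under 0.05, 0 with DESeq2). Of 40 genes of DNA methylation and Polycomb complexes 5 were higher, 12.5%, DNMT1 and UHRF1 among them, and 0 lower (2 lower at an unadjusted p under 0.05, 0 with DESeq2). Histone genes of the replication-dependent kind gave 3 higher and 1 lower of 13 tested, 23.1% and 7.69% (1 higher without replicate 2), though poly(A) selection captures little of their RNA.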
